A study of Mus musculus with 11 samples.

Results

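The expression of 35 genes of glycolysis and of the hypoxia response was followed in keratinocytes (KCs) and dendritic epidermal T cells (DETCs) of mice with and without Langerhans cells (LCs). The genes were chosen by name, as a list matched to mouse symbols, and all 35 were found among the 52550 genes of the table. The list was drawn up with earlier results of these data known. There were 21 genes of glucose uptake, glycolysis and the use of pyruvate, and 14 genes of oxygen sensing and of the response to low oxygen. KCs and DETCs were sorted from flank skin epidermis of 8-week-old female huLangerin-DTA mice, written LC-/-, and of their WT littermates. LC-/- mice carry diphtheria toxin subunit A under human langerin regulatory sequence and lack LCs from birth, so the comparison of genotypes is of lifelong absence and does not date a change. The groups held 3 WT KC, 3 LC-/- KC, 3 WT DETC and 2 LC-/- DETC libraries, and values are given below in the order of the numbers in the sample titles, with the LC-/- DETC libraries carrying the numbers of LC-/- KC libraries 2 and 3. Each DETC library has the number of 1 KC library, which was read as the mouse although the labels do not define it. Both sorts took cells negative for MHC-II, langerin and c-kit, which were CD45- for KCs and CD45+ for DETCs.

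Poly-A RNA was sequenced, and the libraries held 13491075 to 19750440 reads assigned to genes. Values are normalized counts, which are read counts divided by a size factor of the library. Of all genes, 14419 had a CPM above 1 in at least 2 libraries and were tested, and all 35 glycolysis and hypoxia genes were among them. Cd207, which encodes langerin, had 6 to 29 reads in the WT KC libraries and 0 reads in the LC-/- KC libraries, 20, 20 and 48 reads in the WT DETC libraries, and 0 and 4 reads in the LC-/- DETC libraries, with the 4 reads in library 3. Keratinocyte markers were also read in the DETC libraries. Over 20 marker genes their median level there was 15.7% of that of KCs in WT mice and 20.2% in LC-/- mice, with 23.5% in LC-/- DETC library 2 and 14.9% to 18.1% in the other DETC libraries. As means over the libraries of a group, single markers ranged from 9.32% to 33.1% in WT and from 10.4% to 34.7% in LC-/- mice. Within single DETC libraries they ranged from 6.26% to 48.5% in WT and from 5.22% to 51.8% in LC-/- mice. Amounts derived below from the median share are therefore rough. Over 16 DETC markers the median level in KC libraries was 0.00842% (WT) and 0.0162% (LC-/-) of that of DETCs. The 7 alpha/beta T cell markers summed to 10279.5 to 12403 in WT DETC libraries and to 7634 and 14717.5 in the 2 LC-/- DETC libraries. None of these markers was called between genotypes in DETCs. Of 8 mast cell markers, 7 were at 0 in every library of each DETC group. The remaining marker had 343 to 573 in WT and 294 to 427 in LC-/- DETC libraries. In KC libraries the 8 markers summed to 5.12 to 12.1 (WT) and 8.81 to 11.6 (LC-/-). The 1 mast cell marker that was tested was called higher in DETCs than in KCs of both genotypes. It was not called between genotypes in DETCs. The part of such cells in the results was not tested. P-values measure only the spread among these libraries. The normalized count measures the share of a gene in the RNA of a bulk sample, so fewer cells of a type and less RNA per cell cannot be told apart.

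Glycolysis converts glucose to pyruvate. Glucose enters through transporters of the Slc2a family, is trapped by hexokinases, and passes the phosphofructokinase step, at which the flow is set, before the lower enzymes yield ATP and pyruvate. Lactate dehydrogenase and the lactate exporter Slc16a3 carry pyruvate out of the cell as lactate, while pyruvate dehydrogenase kinases keep it from the mitochondria. In low oxygen the transcription factor subunit HIF-1α, encoded by Hif1a, escapes the prolyl hydroxylases Egln1 and Egln3, which otherwise mark it for destruction, and it raises the transcription of glycolysis genes, of Vegfa and of its own hydroxylases. The protein level of HIF-1α is set mainly by that destruction, so Hif1a mRNA is no measure of HIF activity. The epidermis has no vessels of its own and is known as a tissue of low oxygen, and activated T cells are known to use glycolysis heavily.

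HIF binds DNA at a short core, ACGTG or GCGTG. Promoter windows of 300 bases, from 250 before to 50 after the annotated start, were read from RefSeq (GRCm38.p6) and searched for both cores on both strands. A window was found for 31 of the 35 genes, and none for Slc2a3, Bnip3l, Ndrg1 and Bhlhe40. Of the 31 genes, 29 (93.5%) held a core in at least 1 window, all but Gpi1 and Tpi1. Among all genes with a window the share was 46.7%, or 12628 of 27025, and among the tested genes it was 66.9%, or 6882 of 10291. The cores are rich in CpG, and the GC content averaged 61.8% in the windows of the listed genes, 60.4% in those of the tested genes and 53.8% in all windows. Many of the listed genes are known as HIF targets, so this share describes the list and is not a result about these cells. The core ACGTG is also part of the E-box CACGTG, which was present in a window of Hif1a, Bnip3, Ldha, Pfkfb3 and Pfkm. A match is a string of letters and not a measured binding site. The windows of 4 genes are shown, 3 whose level in KCs differed between LC-/- and WT mice (Slc16a3, Egln3 and Adm) and 1 whose level in DETCs did (Hk2). They lie at chr11:120948817-120949116 (plus strand), chr12:54203825-54204124 (minus strand), chr7:110627407-110627706 (plus strand) and chr6:82774405-82774704 (minus strand). Each is written 5′ to 3′ on the strand of the gene, with the cores in capitals (CACGT and CACGC are the same cores read on the other strand).
Slc16a3: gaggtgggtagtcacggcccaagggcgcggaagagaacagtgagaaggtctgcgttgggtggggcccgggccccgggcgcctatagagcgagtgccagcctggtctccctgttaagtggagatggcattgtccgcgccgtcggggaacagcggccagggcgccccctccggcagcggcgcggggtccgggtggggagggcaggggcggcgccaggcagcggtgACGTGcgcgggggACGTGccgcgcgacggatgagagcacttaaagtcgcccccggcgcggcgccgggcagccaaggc
Egln3: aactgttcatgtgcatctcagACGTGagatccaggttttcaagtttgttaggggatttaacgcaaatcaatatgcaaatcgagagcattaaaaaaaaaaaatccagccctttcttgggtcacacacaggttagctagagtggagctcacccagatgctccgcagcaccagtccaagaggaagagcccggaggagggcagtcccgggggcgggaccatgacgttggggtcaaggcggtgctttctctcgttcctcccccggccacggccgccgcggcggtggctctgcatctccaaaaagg
Adm: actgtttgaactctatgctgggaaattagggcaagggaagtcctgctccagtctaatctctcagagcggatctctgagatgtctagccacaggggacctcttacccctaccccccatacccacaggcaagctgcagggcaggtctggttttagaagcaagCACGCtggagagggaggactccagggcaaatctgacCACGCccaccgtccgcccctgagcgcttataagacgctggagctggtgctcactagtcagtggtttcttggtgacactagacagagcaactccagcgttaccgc
Hk2: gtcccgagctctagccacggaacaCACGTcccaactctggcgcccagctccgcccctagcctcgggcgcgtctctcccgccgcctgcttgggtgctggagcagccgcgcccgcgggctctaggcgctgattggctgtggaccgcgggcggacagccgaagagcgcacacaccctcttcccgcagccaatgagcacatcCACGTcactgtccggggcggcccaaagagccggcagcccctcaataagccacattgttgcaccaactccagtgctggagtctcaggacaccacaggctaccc

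Slc16a3 and Hk2 each held ACGTG at 2 places, Egln3 held it once, and Adm held GCGTG at 2 places. The 4 genes lie on 4 chromosomes, at chr11:120948480-120960868, chr12:54178981-54203860, chr7:110627661-110629820 and chr6:82725025-82774454 in GENCODE mouse release 21.

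Levels of different genes were compared as normalized counts per kb of exon. In WT KCs the highest of the 35 was Bhlhe40, a transcriptional repressor, with 2839 ± 227 (SD, n = 3), followed by Aldoa (1692 ± 149), Hif1a (1492 ± 105) and Ndrg1 (1288 ± 78.7). The 3 lowest were Ankrd37 (18.7 ± 7.25), Pfkfb4 (11.6 ± 2.76) and Slc2a3 (3.89 ± 0.484). In WT DETCs the order was led by glycolysis genes, with Aldoa at 2706 ± 409.5, Hk2 at 2517 ± 563 and Ldha at 1325 ± 143 per kb, and Aldoa and Hk2 lay within the SD of each other. In LC-/- DETCs Hk2 was the highest, at 5059 ± 103 per kb (n = 2), above Aldoa at 2745 ± 58.0. In LC-/- KCs Bhlhe40 led with 2857 ± 155, and Hif1a (1943 ± 278) and Ndrg1 (1927 ± 149) came next without a gap beyond their SD. The level of Gapdh is uncertain on this scale. The annotation holds 140 genes that match a stretch of 150 or more of its bases with at least 95% identity, and over 36.1% of its transcript a read could have come from a copy.

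The cell types were compared first within WT mice and then within LC-/- mice, which share no library. In DETCs the glucose transporter gene Slc2a3, the hexokinase gene Hk2 and the collagen hydroxylase gene P4ha2 were far higher than in KCs, and Adm, Bhlhe40 and Hif1a were lower. Of the 35 genes, 26 differed between WT DETCs and WT KCs, 11 of them higher and 15 lower in DETCs, by limma on log2(normalized count + 1) with an adjusted p under 0.05 (fold changes are on that scale, ± the standard error). Of all tested genes, 76.0% were called in that comparison, 41.0% higher and 35.1% lower, so the count for the list is near the background. In LC-/- mice 25 of the 35 were called, 16 higher and 9 lower, against 70.2% of all tested genes (38.1% higher and 32.1% lower). Libraries of the cell types did not overlap for 27 of the 35 in WT mice (12 higher and 15 lower) and 27 in LC-/- mice (17 higher and 10 lower), beside 79.4% (42.7% and 36.7%) and 81.8% (44.0% and 37.7%) of all tested genes. The median log2 fold change over the 35 genes was -0.03 in WT mice and 0.07 in LC-/- mice, beside 0.07 and 0.08 over all tested genes. Called higher in both genotypes were 11 genes and lower in both 9, while 5 were called in WT mice alone, 4 in LC-/- mice alone, 5 in neither, and Slc16a3 in opposite directions. Quantile normalization lowered the median of all genes by 0.32 (WT) and 0.37 (LC-/-) on the log2 scale, and then 9 genes were higher and 18 lower in WT DETCs and 10 higher and 14 lower in LC-/- DETCs. Subtraction of the keratinocyte share from each DETC library, an alternative chosen after seeing the data, lowers DETC values without rescaling them, and the median of all genes moved by -0.24 (WT) and -0.30 (LC-/-) on the log2 scale. With that shift built in, 10 were higher and 18 lower in WT and 11 higher and 14 lower in LC-/- mice.

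**Figure D1:**
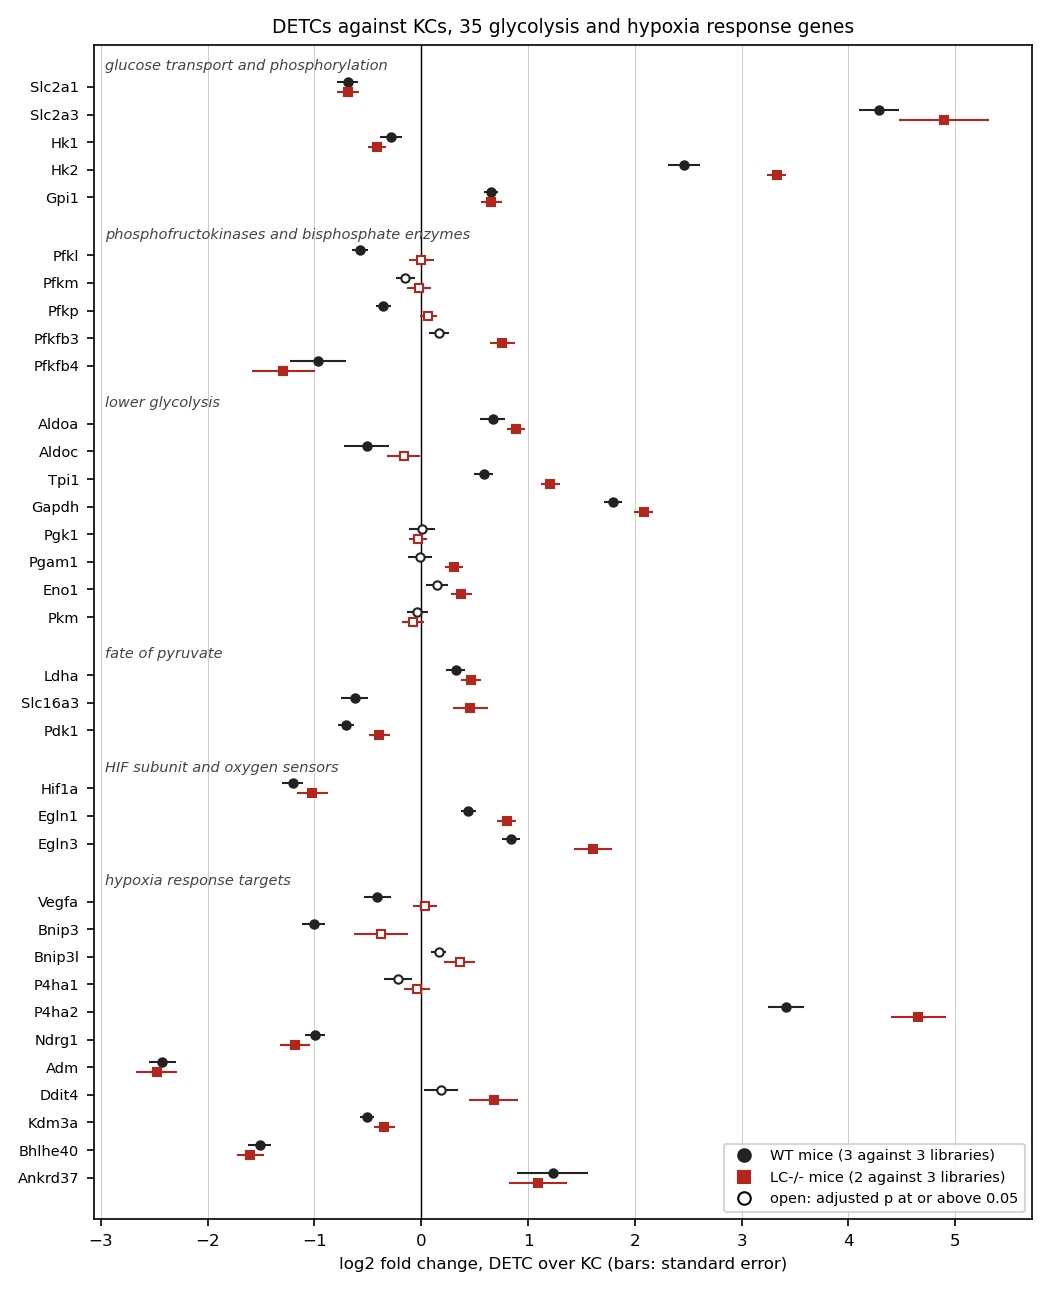
Log2 fold change of DETCs over KCs (horizontal axis, with standard errors) for the 35 genes in 6 groups by role, in WT mice (circles) and LC-/- mice (squares), with open symbols where the adjusted p was at or above 0.05. Slc2a3, P4ha2 and Hk2 lie furthest to the right and Adm furthest to the left in both genotypes.

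All 5 genes of glucose uptake and phosphorylation were called in both genotypes, 3 higher and 2 lower in DETCs. Among all tested genes 76.0% (WT) and 70.2% (LC-/-) were called. Slc2a3 encodes GLUT3, a transporter of high affinity typical of neurons and lymphocytes. Its normalized counts per library came to 30.7, 29.7 and 24.2 (WT) and 23.1, 15.3 and 15.8 (LC-/-) in KCs, against 438, 635 and 657 (WT) and 346 and 898 (LC-/-) in DETCs. Every DETC library lay above every KC library, by 19.6-fold in WT mice (log2 fold change 4.29 ± 0.19, adjusted p = 2.83e-08) and 29.8-fold in LC-/- mice (log2 fold change 4.90 ± 0.42, adjusted p = 8.76e-05). The 2 LC-/- DETC libraries differed more from each other than the WT libraries did. Over 3.13% of the Slc2a3 transcript, 60 other genes match it with at least 95% identity. Counts assigned to the 57 of them with values summed to 33065 to 56148 per library. The part of their reads in the Slc2a3 counts was not tested. Slc2a1 encodes GLUT1, the main glucose transporter of keratinocytes. It had 4134, 3839.9 and 4085 (WT) and 4579, 4846 and 5471 (LC-/-) in KCs, against 2156, 2571 and 2808 (WT) and 3188 and 2973 (LC-/-) in DETCs. The KC libraries were the higher ones, with a log2 fold change of -0.69 ± 0.10 in WT mice (adjusted p = 0.000138) and -0.69 ± 0.10 in LC-/- mice (adjusted p = 0.00109). Slc2a1 remained the main transporter of the pair, with 90.1% ± 0.896 of their summed counts per kb in WT DETCs and 99.7% ± 0.0466 in WT KCs (SD, n = 3).

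The hexokinases, which trap glucose by phosphorylation, moved apart in the same way. Hk2, the inducible form, had 2556, 2576 and 2937 (WT) and 2850.1, 3133 and 3047 (LC-/-) in KCs, against 11707, 18421 and 14948 (WT) and 30634 and 29766 (LC-/-) in DETCs. Its lowest DETC library held more than its highest KC library by a wide margin, and the fold was 5.50 in WT mice (log2 fold change 2.46 ± 0.15, adjusted p = 2.83e-07) and 10.04 in LC-/- mice (log2 fold change 3.33 ± 0.09, adjusted p = 9.53e-07). Hk1, the form found in most tissues, was lower in DETCs, with 1436 to 1849.6 in WT DETCs against 1901 to 2153 in WT KCs (log2 fold change -0.28 ± 0.10, adjusted p = 0.0307) and a like difference in LC-/- mice (log2 fold change -0.42 ± 0.08, adjusted p = 0.00448). The WT call of Hk1 was lost without WT KC library 2 (adjusted p = 0.101), WT KC library 3 (0.0802) or WT DETC library 1 (0.0627). Hk2 made up 65.2% ± 1.92 of the summed Hk1 and Hk2 counts per kb in WT KCs, 63.1% ± 0.274 in KCs of LC-/- mice, 92.6% ± 0.907 in WT DETCs (n = 3 each) and 95.8% ± 0.0417 in LC-/- DETCs (n = 2). Gpi1, the isomerase of the next step, was higher in DETCs by 1.57-fold in WT and 1.58-fold in LC-/- mice (adjusted p = 1.3e-05 and 0.00108).

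At the phosphofructokinase step no gene was called higher in WT DETCs, where 3 of 5 were called lower, beside 41.0% and 35.1% of all tested genes. Pfkp, the platelet form, was the most abundant of the 3 phosphofructokinase genes in all groups, with 58.0% ± 1.42 of their counts per kb in WT KCs and 59.1% ± 1.09 in WT DETCs (n = 3). Pfkl, the liver form, was lower in WT DETCs (log2 fold change -0.57 ± 0.07, adjusted p = 5.16e-05), as was Pfkp (log2 fold change -0.35 ± 0.07, adjusted p = 0.00109). In LC-/- mice neither was called (log2 fold change 0.00 ± 0.11, adjusted p = 0.994 for Pfkl and log2 fold change 0.07 ± 0.08, adjusted p = 0.473 for Pfkp). Pfkm, the muscle form, had 269 to 274 in WT KCs and 238 to 253 in WT DETCs and did not pass in either genotype (adjusted p = 0.163 and 0.874). Pfkfb3 and Pfkfb4 make and break the sugar bisphosphate that switches phosphofructokinase on. Pfkfb3 had 636, 627 and 763 (WT) and 620.3, 577 and 501 (LC-/-) in KCs, against 706, 765 and 803 (WT) and 987 and 923 (LC-/-) in DETCs, so its KC and DETC libraries overlapped in WT mice (log2 fold change 0.17 ± 0.10, adjusted p = 0.132) and parted in LC-/- mice (log2 fold change 0.76 ± 0.12, adjusted p = 0.00122). Pfkfb4 was a low gene, with 45.1 to 71.4 in WT KCs and 22.3 to 36.0 in WT DETCs, and was lower in DETCs of both genotypes (log2 fold change -0.97 ± 0.26, adjusted p = 0.0073 in WT, log2 fold change -1.29 ± 0.30, adjusted p = 0.0076 in LC-/- mice).

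In the lower pathway, aldolase, triosephosphate isomerase and glyceraldehyde phosphate dehydrogenase were higher in DETCs and the later enzymes were not called in WT mice. Aldoa, the main aldolase, had 4513, 5376 and 4888 (WT) and 4294, 4546 and 4112 (LC-/-) in KCs, against 6531, 8799 and 8302 (WT) and 7871 and 8110.1 (LC-/-) in DETCs. Its DETC libraries were the higher ones in both genotypes (log2 fold change 0.67 ± 0.12, adjusted p = 0.000634 in WT, log2 fold change 0.89 ± 0.08, adjusted p = 0.000135 in LC-/- mice). Tpi1 was higher by 1.502-fold in WT DETCs (adjusted p = 0.000197) and 2.31-fold in LC-/- DETCs (adjusted p = 4.34e-05). Gapdh had 597, 715 and 653 (WT) and 542, 544 and 599 (LC-/-) in KCs, against 2414, 2209 and 2199 (WT) and 2335 and 2432 (LC-/-) in DETCs, a difference of 1.80 ± 0.08 in WT and 2.09 ± 0.09 in LC-/- mice on the log2 scale (adjusted p = 4.21e-08 and 4.24e-06). It is often used as a reference gene, and here it was 3.47-fold (WT) and 4.24-fold (LC-/-) higher in DETCs. The counts assigned to its near-identical copies summed to 884 to 2008 per library, so the size of that difference is uncertain. Aldoc, the minor aldolase of these cells with 2.47% ± 0.201 of the pair in WT KCs, was called lower in WT DETCs (log2 fold change -0.51 ± 0.21, adjusted p = 0.0495), although its libraries overlapped. That call was lost in 5 of the 6 fits without 1 library (all but WT DETC library 2, adjusted p from 0.0635 to 0.171), by DESeq2 (adjusted p = 0.0577) and in 4 other fits.

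Pgk1 and Pkm, which yield the ATP of the pathway, were not called in either genotype, with log2 fold changes from -0.08 to -0.03 in LC-/- mice and from -0.03 to 0.01 in WT mice. Pgam1 and Eno1, the mutase and the enolase between them, were called higher in LC-/- DETCs alone (log2 fold change 0.31 ± 0.08, adjusted p = 0.016 for Pgam1, log2 fold change 0.37 ± 0.10, adjusted p = 0.0144 for Eno1). In WT mice Pgam1 differed by -0.01 ± 0.11 and Eno1 by 0.15 ± 0.10 on the log2 scale (adjusted p = 0.941 and 0.22). Whether the genotypes differed in this respect is tested further on, by the interaction. The Pgam1 call was lost without LC-/- KC library 1 (adjusted p = 0.0533) or 3 (0.0546) and the Eno1 call without LC-/- DETC library 3 (0.091). With quantile normalization both were also lost (adjusted p = 0.338 and 0.567), as they were after subtraction of the keratinocyte share (0.563 and 0.384), which lowers the median of all genes by 0.30, close to the size of these folds. Pgam1 was also lost with a replicate block, which takes the mouse as a term (adjusted p = 0.0852). Eno1, Pgk1, Pkm and Ldha each have near-identical copies over 55.0% to 85.6% of the transcript, and Bnip3 over 94.2%, which makes their levels uncertain. The same limit holds over a smaller part of Pgam1 (43.1%), Bnip3l (34.7%), Gpi1 (27.3%) and Tpi1 (19.3%). Counts assigned to the copies of any 1 of these genes summed to at most 115 per library.

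At the fate of pyruvate the genes split by direction. Ldha, which makes lactate, was higher in DETCs (log2 fold change 0.32 ± 0.09, adjusted p = 0.00972 in WT, log2 fold change 0.46 ± 0.09, adjusted p = 0.00414 in LC-/- mice), a difference of 1.25-fold and 1.38-fold that was lost with quantile normalization (adjusted p = 0.578 and 0.432) and after subtraction of the keratinocyte share (0.292 and 0.0945), both of which lower the median of all genes. Pdk1, which holds back pyruvate dehydrogenase, had 666, 733 and 667 (WT) and 514, 499.8 and 549.6 (LC-/-) in KCs, against 417, 410.1 and 439.5 (WT) and 389 and 405 (LC-/-) in DETCs. All its DETC libraries were below all KC libraries of the same genotype (log2 fold change -0.70 ± 0.08, adjusted p = 2.22e-05 in WT, log2 fold change -0.39 ± 0.10, adjusted p = 0.0107 in LC-/- mice). With the replicate block the LC-/- value of Pdk1 was at the threshold (adjusted p = 0.05). Slc16a3, the lactate exporter MCT4, had 273, 277 and 326 (WT) and 166, 138 and 133 (LC-/-) in KCs, against 163, 202 and 204 (WT) and 187 and 214 (LC-/-) in DETCs. WT DETCs were below WT KCs (log2 fold change -0.62 ± 0.13, adjusted p = 0.00156), and LC-/- DETCs were above LC-/- KCs (log2 fold change 0.46 ± 0.16, adjusted p = 0.0403). The DETC libraries of both genotypes lay between 163 and 214, while the KC libraries of LC-/- mice lay below those of WT mice. The LC-/- call was weak. It was lost without any 1 of 4 of the 5 libraries (adjusted p = 0.0827 without LC-/- KC library 2, 0.101 without 3, 0.0894 without LC-/- DETC library 2 and 0.204 without 3), and edgeR and DESeq2 gave 0.052 and 0.0568.

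The genes of oxygen sensing ran in opposite directions in both genotypes, with the HIF subunit lower and both hydroxylases higher in DETCs. Hif1a had 8240.2, 8683 and 9461 (WT) and 11513, 9784 and 13063 (LC-/-) in KCs, against 3428, 3827 and 4228 (WT) and 6033 and 5217 (LC-/-) in DETCs. Within each genotype the DETC libraries lay below the KC libraries (log2 fold change -1.20 ± 0.10, adjusted p = 2.03e-06 in WT, log2 fold change -1.02 ± 0.14, adjusted p = 0.000828 in LC-/- mice). Egln1, the hydroxylase PHD2 that sets HIF-1α levels in normal oxygen, had 1211, 1336 and 1240.4 (WT) and 887, 886 and 827 (LC-/-) in KCs, against 1666, 1645 and 1842 (WT) and 1456 and 1561 (LC-/-) in DETCs. Egln3, the hydroxylase PHD3 and itself a HIF target, had 692, 746 and 761 (WT) and 462, 361 and 489 (LC-/-) in KCs, against 1189, 1447 and 1313 (WT) and 1155 and 1522 (LC-/-) in DETCs. DETC libraries were above the KC libraries of their genotype for both, by 0.44 ± 0.07 (WT) and 0.80 ± 0.08 (LC-/-) on the log2 scale for Egln1 (adjusted p = 0.000385 and 0.000219) and by 0.84 ± 0.09 and 1.61 ± 0.18 for Egln3 (adjusted p = 1.3e-05 and 0.000248). Keratinocyte RNA at the share measured from the markers would give 37.0% of the Hif1a level of WT DETC libraries and 40.2% of that of LC-/- DETC libraries, and 8.96% and 6.44% of the Egln3 level.

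The 11 hypoxia response targets were called in both directions between the cell types. In WT mice 2 were higher in DETCs, 6 lower and 3 not called, and in LC-/- mice 3 were higher, 4 lower and 4 not called. Of all tested genes 76.0% (WT) and 70.2% (LC-/-) were called, also in both directions, so these counts only describe the targets. P4ha2, a subunit of the collagen prolyl hydroxylase, had 111, 165 and 172 (WT) and 119, 98.7 and 65.1 (LC-/-) in KCs, against 1839.8, 1486 and 1419 (WT) and 2549.6 and 2129.5 (LC-/-) in DETCs. It was 10.7-fold higher in WT DETCs (log2 fold change 3.41 ± 0.17, adjusted p = 7.23e-08) and 25.2-fold higher in LC-/- DETCs (log2 fold change 4.66 ± 0.25, adjusted p = 1.21e-05). The gene of the other common subunit, P4ha1, did not pass in either genotype (-0.22 ± 0.13 and -0.04 ± 0.12 on the log2 scale, adjusted p = 0.156 and 0.774), apart from WT mice with the mouse as a fixed replicate block (0.0495). P4ha2 took 7.11% ± 0.816 of the counts per kb of the pair in WT KCs, 5.20% ± 1.35 in KCs of LC-/- mice, 48.7% ± 6.99 in WT DETCs (n = 3 each) and 58.3% ± 5.58 in LC-/- DETCs (n = 2). KC and DETC libraries did not overlap in this share, and exact permutation tests over 3 against 3 and 3 against 2 libraries gave p = 0.1 and p = 0.2, the smallest they allow (two-sided).

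Adm, which encodes the vasodilator peptide adrenomedullin, had the lowest DETC to KC ratio of the 35 genes in both genotypes. It had 767, 792 and 828 (WT) and 1160.1, 1138 and 1079 (LC-/-) in KCs, against 139.7, 128 and 179 (WT) and 252 and 160.3 (LC-/-) in DETCs, a difference of -2.42 ± 0.13 in WT and -2.48 ± 0.19 in LC-/- mice on the log2 scale (adjusted p = 9.84e-08 and 5e-05). Keratinocyte RNA at the marker share would give 86.1% of the Adm counts of WT DETC libraries and 108% of those of LC-/- DETC libraries, so the Adm level of DETC libraries was close to that share. Bhlhe40 had 12276, 14411 and 13385 (WT) and 12676, 14124 and 13531 (LC-/-) in KCs, against 4235, 4447 and 5423 (WT) and 5032 and 3904 (LC-/-) in DETCs. It was 2.85-fold lower in WT DETCs (log2 fold change -1.51 ± 0.11, adjusted p = 1.07e-06) and 3.03-fold lower in LC-/- DETCs (log2 fold change -1.60 ± 0.13, adjusted p = 6.57e-05), and the marker share would give 45.8% and 59.4% of those DETC levels. Ndrg1, a stress response gene of epithelia, was lower in DETCs of both genotypes (log2 fold change -0.99 ± 0.09, adjusted p = 7e-06 in WT, log2 fold change -1.18 ± 0.14, adjusted p = 0.00037 in LC-/- mice), as was the histone demethylase Kdm3a (log2 fold change -0.51 ± 0.06, adjusted p = 6.33e-05 and log2 fold change -0.35 ± 0.10, adjusted p = 0.0199). The Kdm3a call in LC-/- mice was lost in all single-library omissions except that of LC-/- KC library 2 (adjusted p up to 0.122) and with the replicate block (0.0771).

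**Figure D2:**
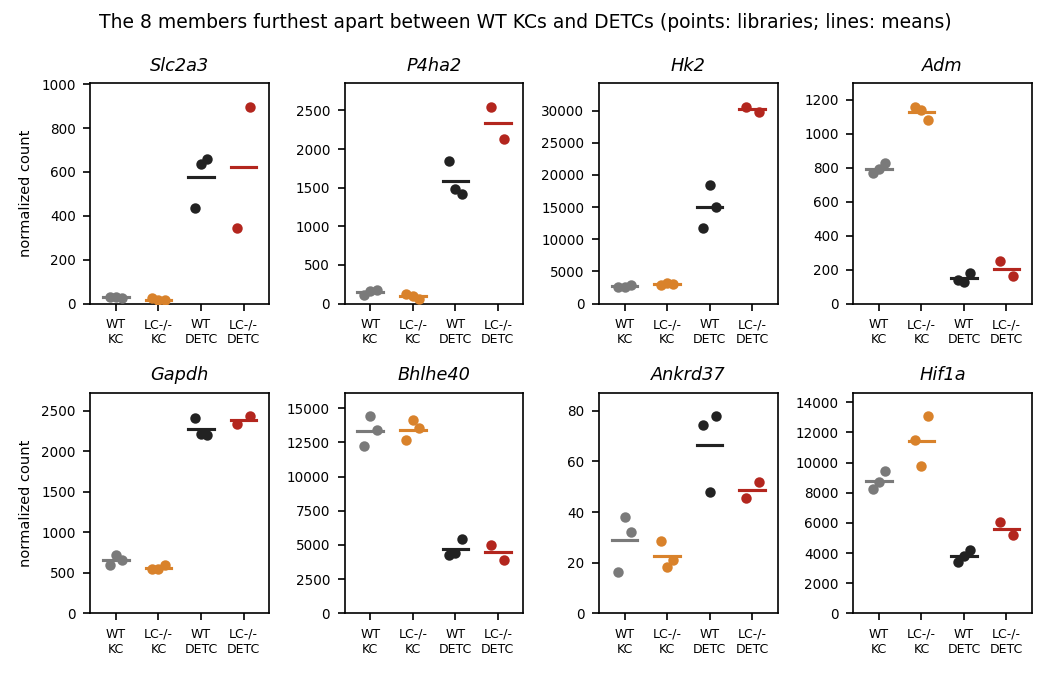
Normalized counts (vertical axis, from 0) of the 8 genes with the largest absolute log2 fold change between WT KCs and WT DETCs, with a point per library and a line at the mean of each of the 4 groups. The DETC libraries of Slc2a3, P4ha2, Hk2, Gapdh and Ankrd37 lie above the KC libraries, and those of Adm, Bhlhe40 and Hif1a below.

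Bnip3 and Bnip3l encode related proteins of mitochondrial turnover. Bnip3 had 479, 584 and 531 (WT) and 359, 204 and 329 (LC-/-) in KCs, against 253, 292 and 246 (WT) and 237 and 208 (LC-/-) in DETCs, and it was lower in WT DETCs (log2 fold change -1.01 ± 0.11, adjusted p = 1.76e-05) but overlapped in LC-/- mice (log2 fold change -0.38 ± 0.25, adjusted p = 0.222). Bnip3l did not pass in either genotype (adjusted p = 0.0565 and 0.065, in LC-/- mice 0.0326 with the replicate block), and its share of the pair per kb was 60.3% ± 2.70 in WT KCs, 70.1% ± 3.12 in KCs of LC-/- mice and 77.3% ± 1.94 in WT DETCs (n = 3 each). Vegfa, the vessel growth factor, had 1168, 1530.4 and 1514 (WT) and 1117, 1173 and 1200.0 (LC-/-) in KCs, against 1129, 902 and 1131 (WT) and 1324 and 1067 (LC-/-) in DETCs. It was called lower in WT DETCs (log2 fold change -0.41 ± 0.13, adjusted p = 0.0142), a call lost without WT KC library 2 (adjusted p = 0.0573), WT KC library 3 (0.0535) or WT DETC library 2 (0.0617), and in LC-/- mice it did not pass (log2 fold change 0.03 ± 0.11, adjusted p = 0.813). Ddit4, an inhibitor of mTORC1, was called higher in LC-/- DETCs alone (log2 fold change 0.68 ± 0.23, adjusted p = 0.0346), and 4 of the 5 fits without a library lost that call (all but that without LC-/- DETC library 2, adjusted p up to 0.134). In WT mice Ddit4 differed by 0.19 ± 0.16 on the log2 scale (adjusted p = 0.311). Ankrd37 was a low gene, with 16.4, 38.0 and 32.0 (WT) and 28.6, 18.3 and 21.02 (LC-/-) in KCs, against 74.2, 47.9 and 77.8 (WT) and 45.6 and 52.0 (LC-/-) in DETCs, and was called higher in DETCs of both genotypes (log2 fold change 1.23 ± 0.33, adjusted p = 0.00748 and log2 fold change 1.09 ± 0.27, adjusted p = 0.0111). With quantile normalization neither call of Ankrd37 held (adjusted p = 0.0513 and 0.11), and without LC-/- DETC library 2 or 3 the call in LC-/- mice was lost (0.0546 and 0.0803). Exons of genes on the other strand cover 26.4% of Ankrd37 and 22.3% of Bnip3, and whether reads were counted by strand is not given in the sources used here.

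**Figure D3:**
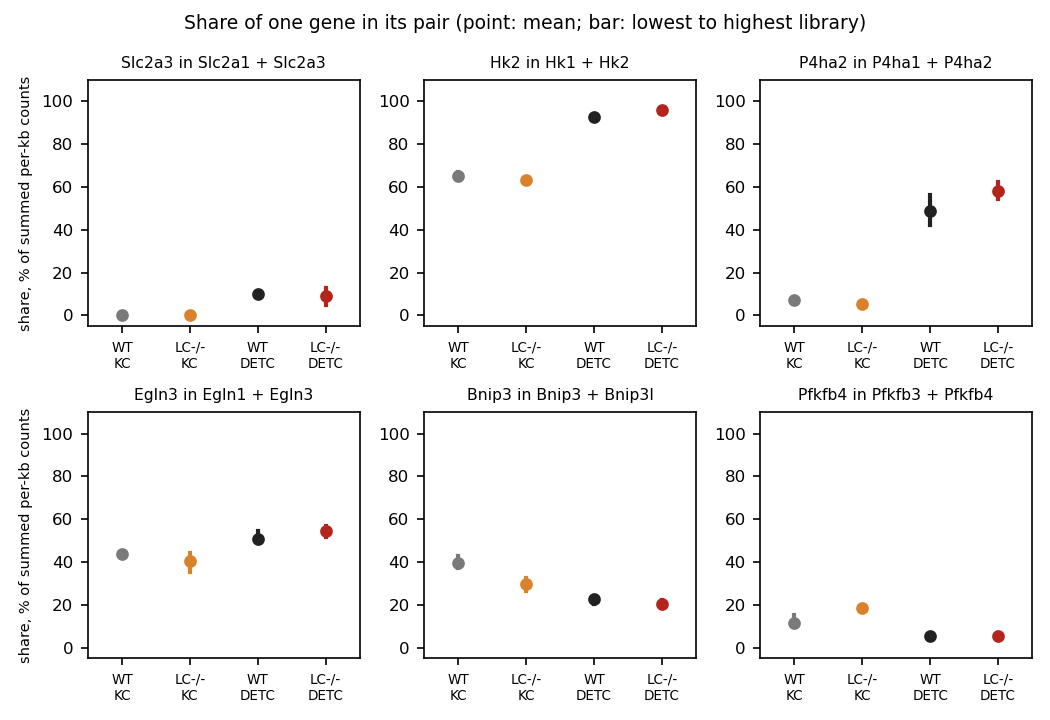
Share of 1 gene in the summed normalized counts per kb of a gene pair (vertical axis, percent), as the mean of the libraries of each group with a bar from the lowest to the highest library. Hk2 and P4ha2 take a larger share in DETCs than in KCs, Bnip3 and Pfkfb4 a smaller one, and Slc2a3 stays the minor transporter in all groups.

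The absence of LCs was then examined within each cell type. In KCs 7 of the 35 genes were called, 2 higher (Ndrg1 and Adm) and 5 lower (Eno1, Slc16a3, Pdk1, Egln1 and Egln3) in LC-/- mice. Among all tested genes 7.23% were called in KCs, 5.37% higher and 1.85% lower. For the list the lower calls were 5 of 35 and the higher calls 2 of 35. The list was chosen with earlier results of these data known, so these counts only describe it. The median log2 fold change of the 35 genes in KCs was -0.21, beside -0.01 over all tested genes, and 24 of the 35 had a negative value. The 3 LC-/- libraries lay wholly below the 3 WT libraries for 15 of the 35 genes and wholly above for 6, 21 in all, while of all tested genes 14.9% lay below and 16.6% above, or 31.5% together. In DETCs 3 of the 35 were called, all higher in LC-/- mice (Hk2, Pfkp and Hif1a), beside 3.56% of all tested genes (3.13% higher and 0.430% lower). There the median of the list was 0.07 and that of all genes 0.02. The groups of DETC libraries parted for 12 genes upward and 3 downward, 15 in all, against 21.3% and 16.5%, or 37.9% together, of all tested genes.

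**Figure D4:**
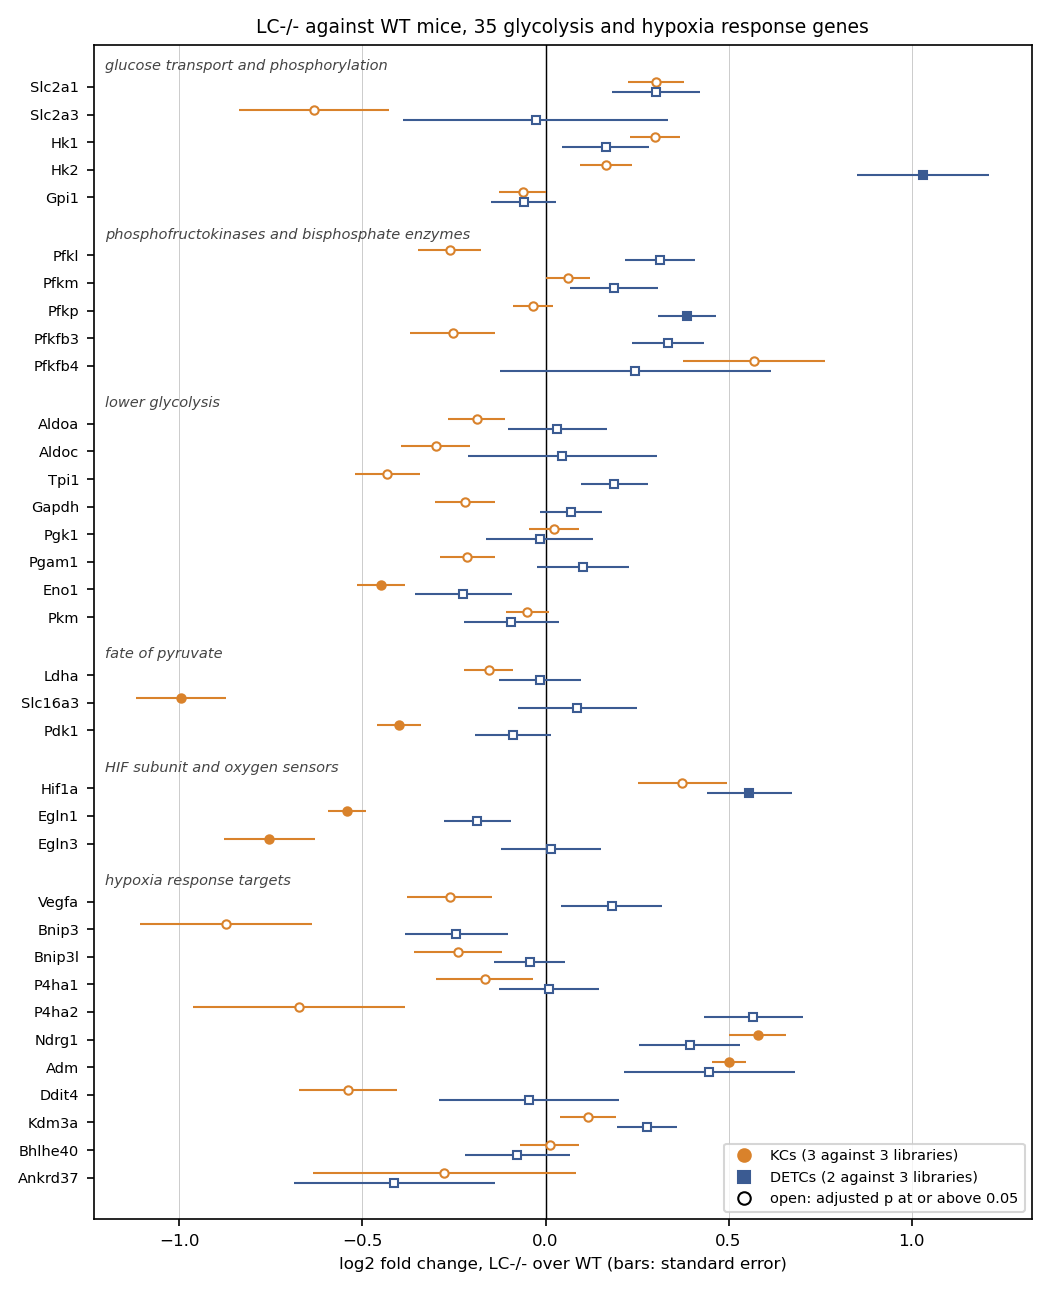
Log2 fold change of LC-/- over WT mice (horizontal axis, with standard errors) for the 35 genes in 6 groups by role, in KCs (circles) and DETCs (squares), with open symbols where the adjusted p was at or above 0.05. In KCs 5 genes with closed symbols lie to the left and 2 to the right of 0, and in DETCs 3 lie to the right.

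The genes lower in LC-/- KCs included both HIF hydroxylases and the genes at the exit of the pathway. Slc16a3 had 273, 277 and 326 in WT KCs and 166, 138 and 133 in LC-/- KCs, so its highest LC-/- library was below its lowest WT library, and the difference was -0.996 ± 0.12 on the log2 scale (adjusted p = 0.0228). Pdk1 had 666, 733 and 667 in WT KCs and 514, 499.8 and 549.6 in LC-/- KCs (log2 fold change -0.40 ± 0.06, adjusted p = 0.0292). Both genes act on the fate of pyruvate, and the other gene of that group, Ldha, had 3368, 3716 and 3401 in WT KCs and 3316, 3186 and 2915 in LC-/- KCs and did not pass (log2 fold change -0.16 ± 0.07, adjusted p = 0.216). Egln1 had 1211, 1336 and 1240.4 in WT KCs and 887, 886 and 827 in LC-/- KCs (log2 fold change -0.54 ± 0.05, adjusted p = 0.0193). Egln3 had 692, 746 and 761 in WT KCs and 462, 361 and 489 in LC-/- KCs (log2 fold change -0.75 ± 0.12, adjusted p = 0.0357). For both hydroxylases the genotypes did not overlap. Hif1a, their substrate, had 8240.2, 8683 and 9461 in WT KCs and 11513, 9784 and 13063 in LC-/- KCs, without overlap but with an adjusted p of 0.13 (log2 fold change 0.37 ± 0.12). By edgeR and DESeq2 on the recovered reads Hif1a was called higher (adjusted p = 0.0251 and 0.00425).

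Among the enzymes of glycolysis in KCs 1 gene was called. Eno1 had 2174, 2414 and 2260.4 in WT KCs and 1743, 1724 and 1549.9 in LC-/- KCs (log2 fold change -0.45 ± 0.06, adjusted p = 0.0275). Tpi1 had 1885, 2283 and 2075 in WT KCs and 1561, 1636 and 1423 in LC-/- KCs, a difference of like size that did not pass (log2 fold change -0.43 ± 0.09, adjusted p = 0.0527, edgeR 0.00792). Of the 8 genes of the lower pathway 7 had a negative value, from -0.45 to -0.05, and Pgk1 had 0.02 ± 0.07. At the entry of glucose Slc2a1, Hk1 and Hk2 had positive values. Slc2a1 had 4134, 3839.9 and 4085 in WT KCs and 4579, 4846 and 5471 in LC-/- KCs and Hk1 had 1901, 2153 and 2083 in WT KCs and 2349.9, 2642 and 2558 in LC-/- KCs, without overlap of the genotypes and without passing limma's test (adjusted p = 0.0804 and 0.0646, log2 fold changes 0.30 ± 0.08 and 0.30 ± 0.07). By edgeR (adjusted p = 0.0277 and 0.0291) and DESeq2 (0.00771 and 0.0107) both were called higher. Hk2 (0.16 ± 0.07), Pfkp (-0.03 ± 0.05), Pfkm (0.06 ± 0.06) and Gpi1 (-0.06 ± 0.06) had overlapping genotypes in KCs. Slc2a3, at 15.3 to 30.7 counts in KCs, was lower in every LC-/- library without passing (adjusted p = 0.13).

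The hypoxia response targets of KCs did not move as a group. Ndrg1 had 9017, 7979 and 8495 in WT KCs and 11984, 12315 and 13827 in LC-/- KCs, 1.49-fold higher in LC-/- mice (log2 fold change 0.58 ± 0.08, adjusted p = 0.0251). Adm had 767, 792 and 828 in WT KCs and 1160.1, 1138 and 1079 in LC-/- KCs, 1.41-fold higher (log2 fold change 0.50 ± 0.05, adjusted p = 0.0193). Adm was lost in 1 fit over all libraries, both without a block (adjusted p = 0.069) and with the mouse as a random replicate block (0.0675). With the block Tpi1 and Bnip3 passed, and 8 of the 35 genes were called in KCs with and without it. Other values went down. These were Bnip3, with 479, 584 and 531 in WT KCs and 359, 204 and 329 in LC-/- KCs, and Ddit4, with 452, 529 and 624 in WT KCs and 371, 389 and 335 in LC-/- KCs, which were below the WT range in all LC-/- libraries but did not pass the main test (adjusted p = 0.0904 and 0.0761). By edgeR both passed (adjusted p = 0.00518 and 0.00938). Vegfa, P4ha1, P4ha2, Kdm3a, Bhlhe40 and Ankrd37 had overlapping genotypes, and Bnip3l did not pass (log2 fold change -0.24 ± 0.12, adjusted p = 0.274). DESeq2 called P4ha2 lower in LC-/- KCs (adjusted p = 0.0324), while limma (0.22) and edgeR (0.061) did not. Bhlhe40, the highest of the 35 per kb in KCs, differed by 0.01 ± 0.08 on the log2 scale.

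All 7 KC calls were close to the threshold, with adjusted p from 0.0193 to 0.0357, and each was lost in several fits without 1 library. Such fits also have fewer samples. Without WT KC library 1 or 2, or LC-/- KC library 1 or 3, none of the 35 genes was called by limma (14 to 17 had an unadjusted p under 0.05), and for the 7 genes the adjusted p was then 0.0669 to 0.119. Without WT KC library 3, 2 were called (Adm and Egln1, adjusted p = 0.0376 and 0.0497), and without LC-/- KC library 2, 5 were called, all but Eno1 and Pdk1 (adjusted p = 0.0503 and 0.0533). The log2 fold changes kept their sign in each of these fits, from -1.09 to -0.91 for Slc16a3 and from 0.52 to 0.62 for Ndrg1. With the full set of libraries edgeR called 13 of the 35 (5 higher, 8 lower) and DESeq2 14 (5 higher, 9 lower), all 7 included. LC markers differed with genotype as well, their sum over 12 genes being 203 to 359 in WT and 59.5 to 121 in LC-/- KC libraries, with 2 and 5 of the 12 at 0 in every library. Keratinocyte markers summed to 731474 to 775823 and 736134 to 779424, and 14 immediate early genes, which are known to rise during dissociation, to 461011 to 474698 and 417377 to 501206. The part of LC RNA in these results was not tested.

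Of the 3 genes called in DETCs Hk2 changed most. Hk2 had 11707, 18421 and 14948 in WT DETCs and 30634 and 29766 in LC-/- DETCs, a fold of 2.04 (log2 fold change 1.03 ± 0.18, adjusted p = 0.0291). Both LC-/- libraries were above all WT libraries, which themselves spanned a wide range. Pfkp had 3533, 3407 and 3583 in WT DETCs and 4604 and 4568 in LC-/- DETCs (log2 fold change 0.39 ± 0.08, adjusted p = 0.0436). Hif1a had 3428, 3827 and 4228 in WT DETCs and 6033 and 5217 in LC-/- DETCs (log2 fold change 0.56 ± 0.12, adjusted p = 0.0446). The other genes of the phosphofructokinase step had positive values too, from 0.19 to 0.33 on the log2 scale, none of which passed. P4ha2 had 1839.8, 1486 and 1419 in WT DETCs and 2549.6 and 2129.5 in LC-/- DETCs and came near the threshold (log2 fold change 0.57 ± 0.13, adjusted p = 0.0636, DESeq2 0.0128). The enzymes of the lower pathway had values from -0.22 to 0.19, and Ldha, Slc16a3 and Pdk1 from -0.09 to 0.09, with no call. The hydroxylases that fell in KCs differed by -0.19 ± 0.09 (Egln1) and 0.02 ± 0.14 (Egln3) in DETCs (adjusted p = 0.317 and 0.968).

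With 2 LC-/- DETC libraries these calls were fragile. Hk2 was lost without WT DETC library 3 (adjusted p = 0.0915), LC-/- DETC library 2 (0.124) or LC-/- DETC library 3 (0.054), with a log2 fold change of 0.86 to 1.19 over the omissions. Pfkp was called only when WT DETC library 1 was the one omitted (adjusted p up to 0.209 otherwise) and Hif1a only when LC-/- DETC library 3 was (adjusted p up to 0.228). By edgeR Pfkp was lost (adjusted p = 0.0579) while Hk2 and Hif1a passed, and DESeq2 called all 3 and P4ha2. Quantile normalization kept Hk2 (0.046) and lost Pfkp (0.277) and Hif1a (0.111), and limma without a mean-variance trend called none (adjusted p = 0.18, 0.197 and 0.202). Keratinocyte markers summed to 116891 to 136221 in WT and 123925 and 192467 in LC-/- DETC libraries. At the marker share KCs would give 2.88% (WT) and 1.97% (LC-/-) of the Hk2 level, 20.6% and 18.8% of that of Pfkp and 37.0% and 40.2% of that of Hif1a. After subtraction of that share the log2 fold changes were 1.05, 0.42 and 0.49, and none was called (adjusted p = 0.151, 0.107 and 0.178). Immediate early genes also stood higher in LC-/- DETCs, with a positive value for 13 of the 14, a call for 1 and summed counts of 426567 to 482661 against 339330 to 406489 in WT DETCs. For 12 of the 14 the LC-/- libraries lay wholly above the WT libraries. Among all tested genes 7554 of 14419 had a positive value, 3.56% were called and 21.3% lay wholly above. DETC markers summed to 239457 to 242264 in WT and 210446 to 220668 in LC-/- DETC libraries. The 12 LC markers summed to 1445 to 1819 in WT and 1328 to 1559 in LC-/- DETC libraries, none of them at 0 in every library of a group, and of the 8 tested 4 were called lower and 1 higher in LC-/- DETCs (median log2 fold change -1.97). The part of LC RNA and of the immediate early response in the DETC results was not tested.

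**Figure D5:**
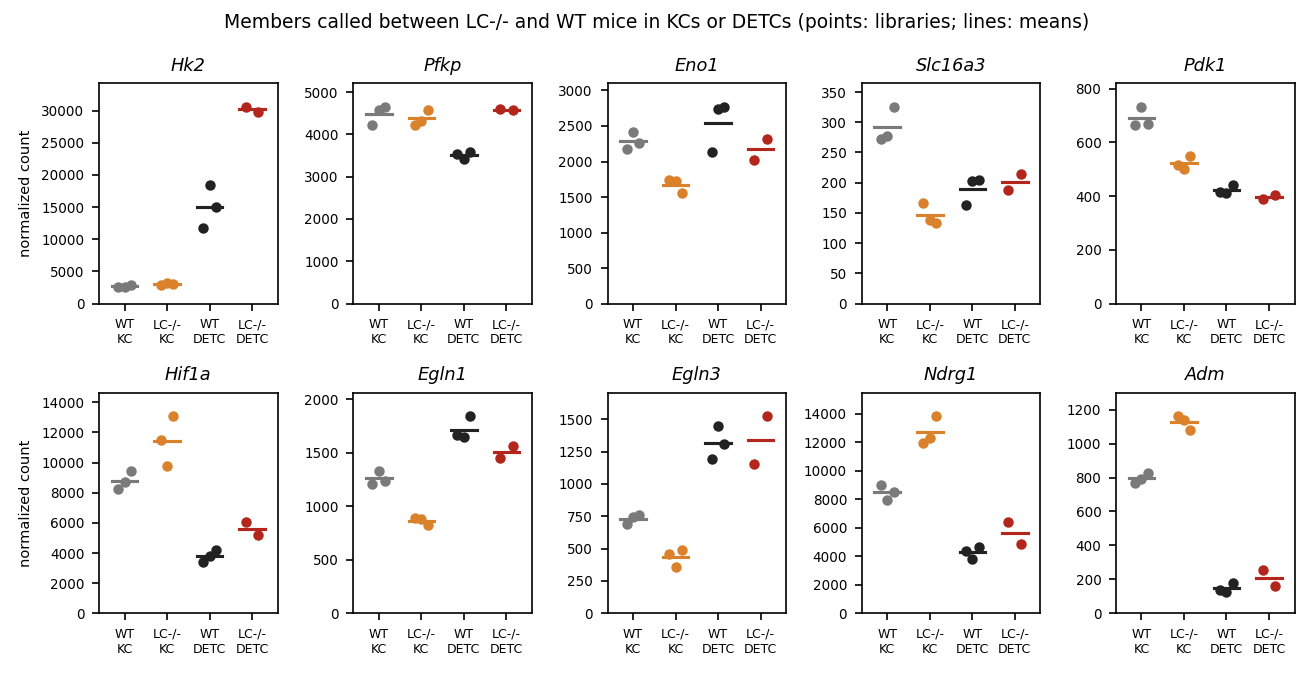
Normalized counts (vertical axis, from 0) of the 10 genes called between LC-/- and WT mice in KCs or DETCs, with a point per library and a line at the mean of each of the 4 groups. Hk2 in LC-/- DETCs lies above every other library, and Slc16a3, Egln1, Egln3, Pdk1 and Eno1 are lower in LC-/- than in WT KCs.

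Whether the change without LCs differed between the cell types was tested by an interaction over all 11 libraries. Slc16a3 alone among the 35 genes was called, beside 0.798% of all tested genes (0.617% with a change higher in DETCs than in KCs). Its change without LCs was -0.996 ± 0.12 in KCs and 0.09 ± 0.16 in DETCs, and the difference was 1.08 ± 0.21 on the log2 scale (adjusted p = 0.0319). That call was lost with the replicate block (adjusted p = 0.0692), with quantile normalization (0.0593), without a mean-variance trend (0.0792) and in 10 of the 11 fits without 1 library, all but that without LC-/- KC library 1 (adjusted p up to 0.0878, difference 0.98 to 1.18). edgeR called Slc16a3 alone, and DESeq2 called 8 of the 35, namely Slc16a3, Hk2, Pfkl, Pfkp, Pfkfb3, Tpi1, Egln3 and P4ha2. By limma the values of Tpi1 (0.62 ± 0.13, adjusted p = 0.0556), Pfkl (0.57 ± 0.13, 0.0724) and Hk2 (0.87 ± 0.20, 0.076) came nearest to it. Egln1 (0.36 ± 0.11, adjusted p = 0.212) and Egln3 (0.77 ± 0.19, 0.107), called lower in KCs and not in DETCs, did not pass limma's test of that difference, although DESeq2 called Egln3 (adjusted p = 0.0123). Pgam1 and Eno1 did not pass either (adjusted p = 0.475 and 0.672). Of the 35 interaction values 27 were positive, and over all tested genes 8160 of 14419 were.

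Further genes of the same pathways were described from 2 lists that do not contain the 35. Of 48 other glycolysis genes 36 were tested, and 15 were higher and 12 lower in WT DETCs, 14 and 13 in LC-/- DETCs. The share called is near that of all tested genes (76.0% and 70.2%). Bpgm, which makes the bisphosphoglycerate that tunes oxygen release from haemoglobin, had 117, 95.5 and 88.2 (WT) and 81.5, 81.4 and 107 (LC-/-) in KCs, against 748, 1048 and 936 (WT) and 1417 and 1375 (LC-/-) in DETCs (log2 fold change 3.17 ± 0.15, adjusted p = 5e-08 in WT, log2 fold change 3.95 ± 0.16, adjusted p = 3.5e-06 in LC-/- mice). Among the glucose transporters Slc2a6 and Slc2a9 were higher in DETCs of both genotypes (log2 fold changes in WT mice 2.54 ± 0.22 and 2.27 ± 0.18, adjusted p = 4.28e-06 and 2.39e-06), and Slc2a12, Slc2a5 and Slc2a4 lower (-2.65 ± 0.15, -2.37 ± 0.21 and -2.30 ± 0.29, adjusted p = 1.59e-07, 5.29e-06 and 5.2e-05). Between genotypes 3 of the 36 were called in KCs, also near the 7.23% of all tested genes. Slc2a12 was lower in LC-/- KCs, with 1714, 1396 and 1533 in WT KCs and 971, 894 and 1009 in LC-/- KCs (log2 fold change -0.69 ± 0.09, adjusted p = 0.0248). Gpd2, the mitochondrial enzyme of the glycerol phosphate shuttle, was higher, with 982, 1033 and 1108 in WT KCs and 1569, 1408 and 1615 in LC-/- KCs (log2 fold change 0.55 ± 0.07, adjusted p = 0.0248), and its change differed from that in DETCs (interaction -0.83 ± 0.14, adjusted p = 0.0224). Pdhx was the other one higher (log2 fold change 0.43 ± 0.08, adjusted p = 0.047). In DETCs limma called 0 of the 36, with 7 at an unadjusted p under 0.05, edgeR called 0 and DESeq2 3.

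Of 55 other genes of the HIF pathway 46 were tested, and 22 were higher and 20 lower in WT DETCs, 20 and 16 in LC-/- DETCs, beside the same 76.0% and 70.2% of all tested genes. Epas1, which encodes HIF-2α, was lower in WT DETCs, with 313, 439 and 406 in WT KCs and 89.5, 107 and 129 in WT DETCs (log2 fold change -1.82 ± 0.17, adjusted p = 7.28e-06), as Hif1a was. Vhl, the ligase subunit that binds hydroxylated HIF, was higher, with 62.5, 57.5 and 60.5 in WT KCs and 658, 767 and 758 in WT DETCs (log2 fold change 3.57 ± 0.11, adjusted p = 3.23e-09). Arnt2, a partner subunit of HIF known mainly from the nervous system, had 7355, 6845 and 7416 in WT DETCs and 6.15, 4.64 and 9.51 in WT KCs. In KCs 10 of the 46 were called between genotypes, 2 higher and 8 lower, where the background was 5.37% and 1.85%. This list too was chosen with earlier results of these data known. Hilpda, a lipid droplet protein induced by hypoxia, was higher in LC-/- mice in both cell types. It had 159, 139 and 198 (WT) and 349, 323 and 346 (LC-/-) in KCs, against 868, 1018 and 1069.7 (WT) and 1734 and 1709 (LC-/-) in DETCs (log2 fold change 1.05 ± 0.14, adjusted p = 0.0251 in KCs, log2 fold change 0.81 ± 0.11, adjusted p = 0.0155 in DETCs). The lower genes in KCs included Plod1, a collagen lysyl hydroxylase (log2 fold change -0.56 ± 0.08, adjusted p = 0.028), and the mitochondrial proteins Higd1a (log2 fold change -0.50 ± 0.08, adjusted p = 0.0314) and Fam162a (log2 fold change -0.44 ± 0.08, adjusted p = 0.0453). In DETCs 3 of the 46 were called, all higher, beside 3.56% of all tested genes (3.13% higher and 0.430% lower). Apart from Hilpda these were Cul2 (log2 fold change 0.68 ± 0.09, adjusted p = 0.0161) and Ier3 (log2 fold change 0.46 ± 0.09, adjusted p = 0.0334).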

How the data were processed

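RNA of sorted epidermal KCs and DETCs was measured in 11 libraries, 3 from WT KCs, 3 from LC-/- KCs, 3 from WT DETCs and 2 from LC-/- DETCs. Per the study's methods, the authors used cutadapt for trimming, hisat2 for alignment to GRCm38, featureCounts for counts per gene and DESeq2 for normalization. The deposited signal values are these counts divided by a size factor per library. Whether counting used strand is not given in the sources used here. Whole reads were recovered from the values (100% whole within 0.01 reads), and 13491075 to 19750440 reads per library fell on genes. Gene symbols were matched for 52403 of 52550 IDs with GENCODE mouse release 21.

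Genes with a CPM above 1 in at least 2 libraries (14419) were tested on log2(normalized count + 1) with limma 3.58.1 (R 4.3.3, empirical Bayes with a mean-variance trend, Benjamini-Hochberg adjustment over all tested genes, threshold 0.05), each comparison on its own groups and the interaction over all 11 libraries. The recovered reads were tested with edgeR 4.0.16 (quasi-likelihood) and DESeq2 1.42.0 as alternatives, beside other pseudocounts, filters, scalings, a replicate block and the omission of each library. The block was the number shared by a KC and a DETC library in the titles, read as the mouse. Deviations from the group means correlated by -0.05 to 0.14 between same-numbered libraries. Subtraction of the keratinocyte share, the median level of 20 keratinocyte markers in a DETC library relative to KCs, was added after the data were seen. As a check of the code, the fits were run on simulated counts. These had few changed genes, a fixed dispersion and otherwise the same mean in all groups. The settings differ from the data, so the run does not measure error rates here. The 35 genes and the other lists were chosen with earlier results of these data known. All 35 genes are named, and of the other lists at most the 5 called genes with the largest log2 fold change per direction and comparison, with a mean of at least 10.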

Additional observations from a re-analysis of the deposited data

Results flagged for a closer look

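The change without LCs differed between the cell types for Slc16a3, with a log2 interaction of 1.08 (adjusted p = 0.0319 by limma). Its KC libraries were lower and its DETC libraries overlapped between genotypes.

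For 3 further genes of glycolysis, every LC-/- library was below every WT library in KCs and above every WT library in DETCs. These were Pfkl (log2 interaction 0.57, adjusted p = 0.0724), Pfkfb3 (0.59, adjusted p = 0.123) and Tpi1 (0.62, adjusted p = 0.0556), so the difference itself did not pass limma's test for any of the 3. DESeq2 called all 3 (adjusted p = 0.0129, 0.033 and 0.00201) and edgeR none (0.0926, 0.137 and 0.0581). The 3 genes were picked for this pattern. Of all tested genes, 14.9% lay wholly lower in LC-/- KCs and 21.3% wholly higher in LC-/- DETCs. The share of all genes that did both was not counted.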

How the results depend on the processing

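Of the 35 genes, 26 were called between cell types in WT mice and 25 in LC-/- mice, and the counts stayed within 1.5 times of these under all alternatives run. Between genotypes in KCs the count of 7 became 13 with edgeR, 14 with DESeq2, 13 with a minimum mean of 10 and 13 with no filter on all genes, and 0 to 5 when 1 library was left out. In DETCs the count of 3 became 2 with edgeR, 4 with DESeq2, 2 with TMM, 2 with no filter, 1 with quantile normalization, 0 without a mean-variance trend (7 at an unadjusted p under 0.05) and 0 after subtraction of the keratinocyte share (10 at an unadjusted p under 0.05), and 0 to 3 when 1 library was left out. For the interaction the count of 1 became 8 with DESeq2, 2 with a pseudocount of 8, 0 without a trend (10 unadjusted), 0 with the replicate block (11 unadjusted) and 4 after the subtraction, and 0 to 2 when 1 library was left out.

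No called gene changed its sign. Over the called genes and their alternatives, the call was kept in 474 of 494 cases in WT mice, 388 of 425 in LC-/- mice, 82 of 119 in KCs, 29 of 51 in DETCs and 9 of 22 for the interaction. Among genes not called, Pfkp in LC-/- mice (log2 fold change 0.07) was called lower in DETCs with quantile normalization and after the subtraction. The cause of these changes was not tested. Leaving out a library also lowers the number of samples, which cannot be told apart from the influence of that library. With the replicate block 26 genes (random) or 27 (fixed, added after the data were seen) were called in WT and 23 in LC-/- mice, 8 in KCs and 3 in DETCs. Calls differed from the main fits only for P4ha1, Pgam1, Pdk1, Bnip3l, Kdm3a, Tpi1, Bnip3, Adm and Slc16a3, as given above. For Tpi1, Bnip3 and Adm the blocked fit also pooled all libraries. Pooling without the block called 8 genes in KCs as well and lost Adm.

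Depth limits the lowest genes, such as Slc2a3 in KCs and Ankrd37 and Pfkfb4 in all groups. With 2 LC-/- DETC libraries, the omission of 1 leaves a lone sample, assumed to vary like the other group.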

Other observations

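Gene pairs were compared as shares of summed normalized counts per kb. The 4 given here were picked because their LC-/- and WT KC libraries did not overlap. The shares within the hexokinases, the phosphofructokinases, the aldolases and Egln1 with Egln3 overlapped between genotypes in KCs. As levels of single genes, 31.5% of all tested genes parted in KCs. Pfkfb4, beside Pfkfb3, took 18.6% ± 1.64 of the pair in LC-/- and 11.6% ± 2.98 in WT KCs (SD, n = 3 each). Bnip3, beside Bnip3l, took 29.9% ± 3.12 and 39.7% ± 2.70. P4ha2, beside P4ha1, took 5.20% ± 1.35 and 7.11% ± 0.816, and Slc2a3, beside Slc2a1, took 0.178% ± 0.0571 and 0.339% ± 0.0466. In each case the exact permutation test (two-sided, 3 against 3 libraries) gave p = 0.1, the smallest it allows. In DETCs these 4 shares overlapped between genotypes, while those of Hk1, Hk2, Pfkm and Pfkp did not (exact permutation p = 0.2 each).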
